A study of Homo sapiens with 4 samples.

Results

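The genes described are 33 enzymes of glycolysis and the pentose phosphate pathway, taken by symbol from a deposited table of 21865 gene symbols. Each of the 33 symbols was found and was listed in 1 entry. A gene is called measured where some line reached 1 RPKM (reads per kilobase of gene length, scaled to the library total), which held for 31 of these 33 and for 12976 of all symbols. PFKFB2 and PDK4 stayed under 1 RPKM in all 4 lines.

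RNA was sequenced from 4 cultured human acute myeloid leukemia lines, THP-1, MonoMac-1, HL60 and KG1a, with 1 library per line. The MLL-AF9 fusion is known from THP-1 and MonoMac-1, both monocytic, while HL60 is promyelocytic and KG1a immature; the labels themselves do not mention the fusion. All were grown in RPMI/Opti-Media medium with 10% serum and 5% CO2, and no line was labelled as treated. The title of the THP-1 sample ends in "tr", which nothing explains, so a treatment of that culture cannot be told from the line. The labels say nothing of glucose and oxygen supply, cell density or passage.

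Glycolysis splits glucose into pyruvate and yields ATP, and lactate dehydrogenase turns pyruvate into lactate. The pentose phosphate pathway branches off at glucose 6-phosphate and makes NADPH and ribose 5-phosphate, which dividing blood cells use for lipid and nucleotide synthesis and phagocytes use to feed the NADPH oxidase. Several steps are served by isoenzymes, which are products of separate genes that catalyse the same reaction with different affinity, regulation or tissue distribution. The choice among them was therefore compared across the lines, on the RPKM scale, which is per length.

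Depth ran between 6.04 gigabases on genes for THP-1 and 13.6 for MonoMac-1. Counting intervals given below are 95% Poisson intervals that take 200 bases as 1 fragment, and they cover counting error only, since there was no replicate. As markers of the labelled lines, CD34 stood at 494 RPKM in KG1a, 12.9 RPKM in HL60, 0.253 in MonoMac-1 and 0.0205 in THP-1. The summed LYZ, CD68 and IRF8 stood at 912 RPKM in THP-1 and 5219 RPKM in MonoMac-1, against 16.9 RPKM in HL60 and 1.74 RPKM in KG1a. Of the granule genes listed for HL60, PRG2 (7020 RPKM) and MPO (4610 RPKM) were highest there, and ELANE was not, at 1042 RPKM in THP-1, 1313 in MonoMac-1, 76.6 RPKM in HL60 and 0.0355 RPKM in KG1a. Fibroblast markers (COL1A1, COL1A2 and COL3A1) summed to at most 0.209 RPKM. T cell genes (CD3D, CD3E and CD3G) summed to 24.7 RPKM in KG1a and at most 2.86 in the other lines. Epithelial genes summed to at most 6.49 RPKM in any line and B cell genes to at most 6.62. HL60 held low levels of KG1a transcripts: 53 genes abundant in KG1a and nearly absent from THP-1 and MonoMac-1 had a median HL60 level of 2.71% of that in KG1a. Counts and leading isoenzymes in HL60 that this share moves are given with and without it. Single HL60 levels and folds are as deposited unless stated. With the share taken off, H6PD in HL60 fell from 2.56 to 2.03 RPKM and BNIP3L from 6.22 to 4.93 RPKM. In bulk RNA, fewer expressing cells and less RNA per cell cannot be told apart.

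At the first step, the 4 lines used different mixtures of hexokinase, the enzyme that traps glucose as glucose 6-phosphate. HK1, the widely expressed form, stood at 10.9 RPKM in THP-1, 48.1 in MonoMac-1, 5.76 RPKM in HL60 and 50.9 RPKM in KG1a. HK2, the inducible form typical of insulin-sensitive and tumour tissue, stood at 5.49 RPKM in THP-1, 8.21 in MonoMac-1, 35.3 RPKM in HL60 and 27.1 RPKM in KG1a. HK3, the form of myeloid cells, stood at 7.41 RPKM in THP-1, 6.07 in MonoMac-1, 1.01 in HL60 (95% counting interval 0.855 to 1.18) and 0.0614 in KG1a (0.0311 to 0.109). THP-1 exceeded KG1a in HK3 by 121 times (67.8 to 239.6). HK1 was thus high in MonoMac-1 and KG1a, HK2 in HL60 and KG1a, and HK3 in THP-1 and MonoMac-1, so that each line had its own combination.

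As a share of the summed hexokinase RPKM, HK1 made up 45.8% in THP-1, 77.1% in MonoMac-1, only 13.7% in HL60, and 65.2% in KG1a. HK2 made up 23.1% in THP-1, 13.2% in MonoMac-1, fully 83.9% in HL60, and 34.7% in KG1a. HK3 made up 31.1% in THP-1, 9.73% in MonoMac-1, 2.40% of the HL60 sum and 0.0787% of the KG1a sum. HL60 was the only one of the 4 lines in which HK2 led. After the KG1a share was taken off HL60, HK2 stood at 86.5% there and HK1 at 11%. The summed level was lowest in THP-1 at 23.8 RPKM, and stood at 62.4 in MonoMac-1, 42.1 RPKM in HL60 and 78.0 RPKM in KG1a. KG1a exceeded HL60 in HK1 by 8.82 times and MonoMac-1 exceeded THP-1 by 4.41 times, so the 2 MLL-AF9 lines differed from each other in HK1, as did the 2 other lines.

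**Figure D1:**
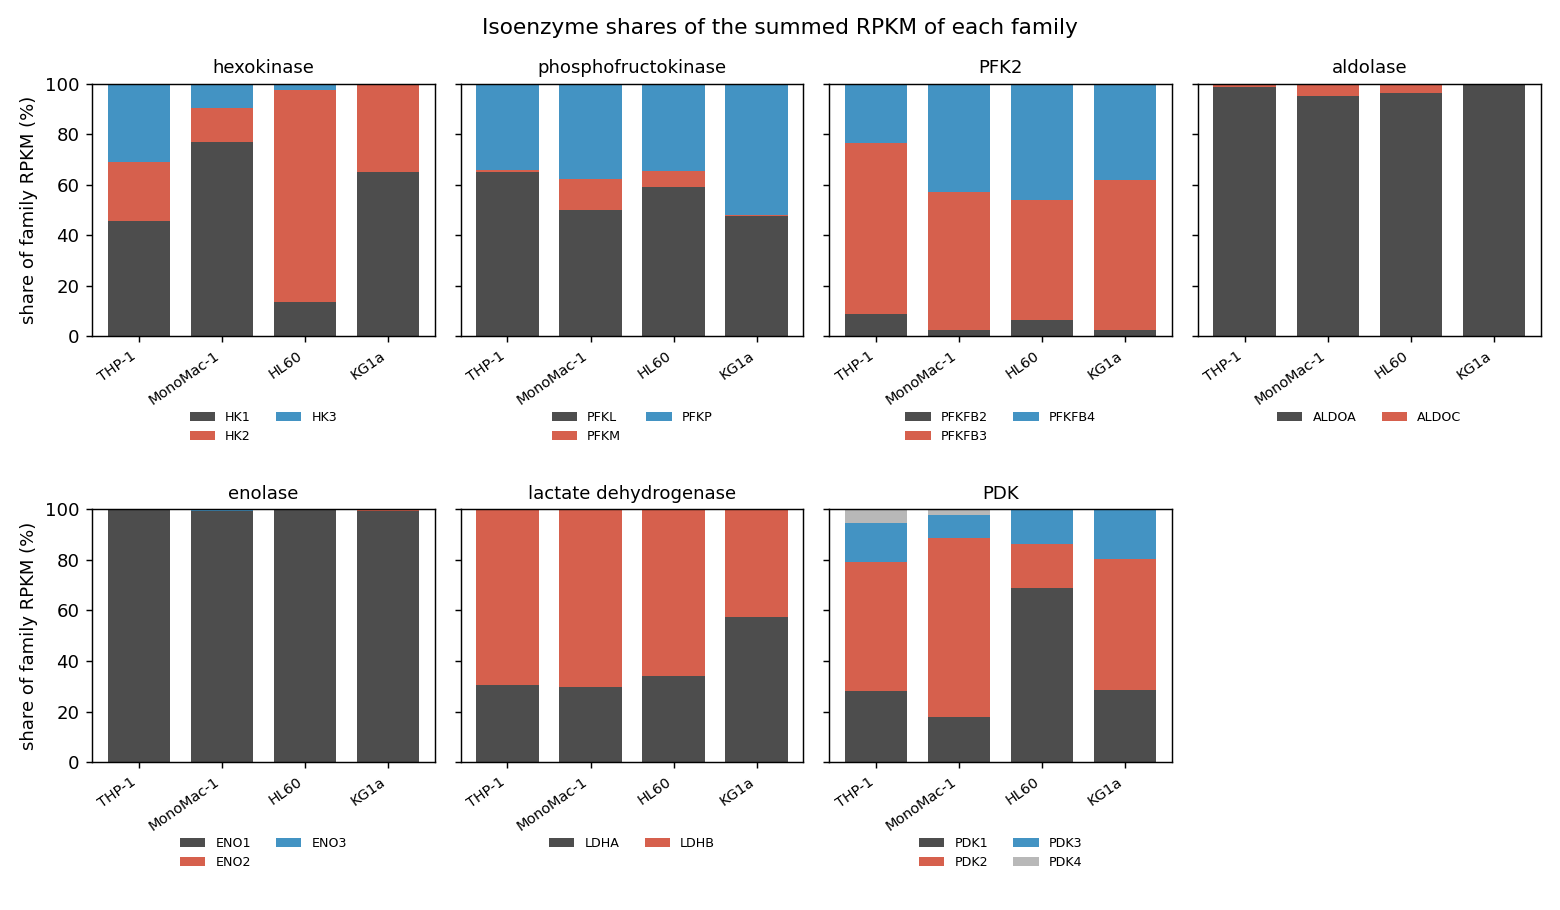
Share of the summed RPKM of 7 enzyme families (y axis, percent) taken by each isoenzyme in THP-1, MonoMac-1, HL60 and KG1a (x axis), with 1 library per line. HK2 takes 83.9% of hexokinase in HL60, and LDHA leads lactate dehydrogenase in KG1a (57.3%) but not in the other 3 lines.

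Phosphofructokinase commits fructose 6-phosphate to glycolysis. PFKL, the liver-type subunit, stood at 69.7 RPKM in THP-1, 36.8 in MonoMac-1, 79.9 RPKM in HL60 and 70.3 RPKM in KG1a. PFKP, the platelet-type subunit, stood at 36.7 RPKM in THP-1, 27.7 in MonoMac-1, 47.0 RPKM in HL60 and 77.0 RPKM in KG1a. PFKL led in THP-1 (64.9%), MonoMac-1 (49.9%) and HL60 (59.1%), and PFKP led in KG1a (52.1% against 47.5% for PFKL).

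PFKM, the muscle-type subunit, was high in 1 MLL-AF9 line and in 1 of the other lines. It stood at 0.937 RPKM in THP-1 (0.777 to 1.12), 9.31 in MonoMac-1 (8.97 to 9.67), 8.29 in HL60 (7.88 to 8.72) and 0.585 in KG1a (0.490 to 0.693). MonoMac-1 exceeded THP-1 by 9.95 times and HL60 exceeded KG1a by 14.2 times. PFKM made up 12.6% of the family in MonoMac-1 and 6.13% in HL60, against 0.872% in THP-1 and 0.396% in KG1a.

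The bifunctional PFKFB enzymes make and break fructose 2,6-bisphosphate, an activator of phosphofructokinase. PFKFB3, the form with the strongest kinase bias, led in all 4 lines as deposited, at 6.24 RPKM in THP-1, 8.49 in MonoMac-1, 5.79 RPKM in HL60 and 16.1 RPKM in KG1a. PFKFB4 stood at 2.15 RPKM in THP-1, 6.6 in MonoMac-1, 5.68 RPKM in HL60 and 10.4 RPKM in KG1a. In HL60 both were near parity (47.2% and 46.2% of the family, with overlapping counting intervals of 45.2% to 49.1% and 44.3% to 48.2%), whereas in THP-1 PFKFB3 made up 67.8%. After the KG1a share was taken off, PFKFB4 led in HL60, at 46.7% against 46.4% for PFKFB3. PFKFB2 ranged from 0.379 RPKM in MonoMac-1 to 0.812 in HL60.

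Aldolase cleaves fructose 1,6-bisphosphate. ALDOA, the ubiquitous form, stood at 401 RPKM in THP-1, 378 in MonoMac-1, 672 RPKM in HL60 and 309 RPKM in KG1a, and made up between 95.3% (MonoMac-1) and 99.8% (KG1a) of the summed aldolase level. ALDOC, the form known from brain, varied far more, at 5.56 RPKM in THP-1, 18.9 in MonoMac-1, 25.9 RPKM in HL60 and 0.568 RPKM in KG1a. HL60 exceeded KG1a in ALDOC by 45.6 times (counting interval 35.1 to 60.4), and MonoMac-1 exceeded THP-1 by 3.39 times.

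Enolase makes phosphoenolpyruvate. ENO1, the ubiquitous form, stood at 1061 RPKM in THP-1, 1355 in MonoMac-1, 2218 RPKM in HL60 and 1114 RPKM in KG1a, and made up at least 99.2% of the family in each line. ENO2, the neuronal form, stood at 0.290 RPKM in THP-1 (0.187 to 0.431), 1.5 in MonoMac-1, 3.28 RPKM in HL60 and 6.91 RPKM in KG1a. ENO3, the muscle form, was highest in MonoMac-1 at 6.72 RPKM, against 1.45 in THP-1, 1.58 RPKM in HL60 and 2.0 RPKM in KG1a. The minor forms therefore differed up to 23.8 times between lines without changing which enolase led.

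Lactate dehydrogenase is a tetramer of A and B subunits. LDHB, the heart-type subunit, stood at 471 RPKM in THP-1, 565 in MonoMac-1, 664 RPKM in HL60 and 256 RPKM in KG1a. LDHA, the muscle-type subunit, stood at 208 RPKM in THP-1, 239 in MonoMac-1, 346 RPKM in HL60 and 343 RPKM in KG1a. LDHA took 57.3% of the summed level in KG1a, against 30.7% in THP-1, 29.7% for MonoMac-1 and 34.3% in HL60. LDHA was nearly equal in HL60 and KG1a (a ratio of 1.01; 33.9% of the HL60 sum after the KG1a share was taken off), and LDHB was 2.59 times higher in HL60 than in KG1a.

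The pyruvate dehydrogenase kinases phosphorylate pyruvate dehydrogenase and so limit the entry of pyruvate into the citric acid cycle. PDK1, a target of the hypoxia-inducible factor, stood at 3.71 RPKM in THP-1, 2.36 in MonoMac-1, 11.2 RPKM in HL60 and 8.34 RPKM in KG1a. PDK2, a widely expressed form, stood at 6.72 RPKM in THP-1, 9.47 in MonoMac-1, 2.85 RPKM in HL60 and 15.2 RPKM in KG1a. PDK1 led in HL60 with 68.8% of the family, and PDK2 led in THP-1 (51.2%), MonoMac-1 (71.1%) and KG1a (51.9%).

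PDK2 was 5.34 times higher in KG1a than in HL60. After the KG1a share was taken off, HL60 was left at 2.44 RPKM of PDK2, and PDK1 made up 70.9% of the family there and PDK2 15.7%. PDK3 stood at 1.98 RPKM in THP-1, 1.18 in MonoMac-1, 2.24 RPKM in HL60 and 5.75 RPKM in KG1a. PDK4, a form induced in starvation, was listed at 0 in HL60 and KG1a and stood at 0.732 RPKM in THP-1 (0.591 to 0.895) and 0.312 in MonoMac-1 (0.251 to 0.383). A count of 0 allows up to 0.0165 RPKM in HL60 and 0.0133 RPKM in KG1a, so PDK4 was seen in the MLL-AF9 lines, below the level at which a gene counts as measured.

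In all, the leading isoenzyme differed among the lines in 4 of 7 families (hexokinase, phosphofructokinase, lactate dehydrogenase and pyruvate dehydrogenase kinase) and was the same in 3. After the KG1a share was taken off HL60 it differed in 5. The fifth was the PFKFB enzymes, near parity in HL60 with 46.7% for PFKFB4 and 46.4% for PFKFB3. As deposited, the odd line was HL60 for hexokinase and the pyruvate dehydrogenase kinases, and KG1a for the other 2 families. Without HL60 the leader therefore differed in 2 families. The 2 MLL-AF9 lines shared their leading isoenzyme in all 7 families. For hexokinase this hid a large difference in the shares, with HK3 at 31.1% in THP-1 and 9.73% in MonoMac-1.

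**Figure D2:**
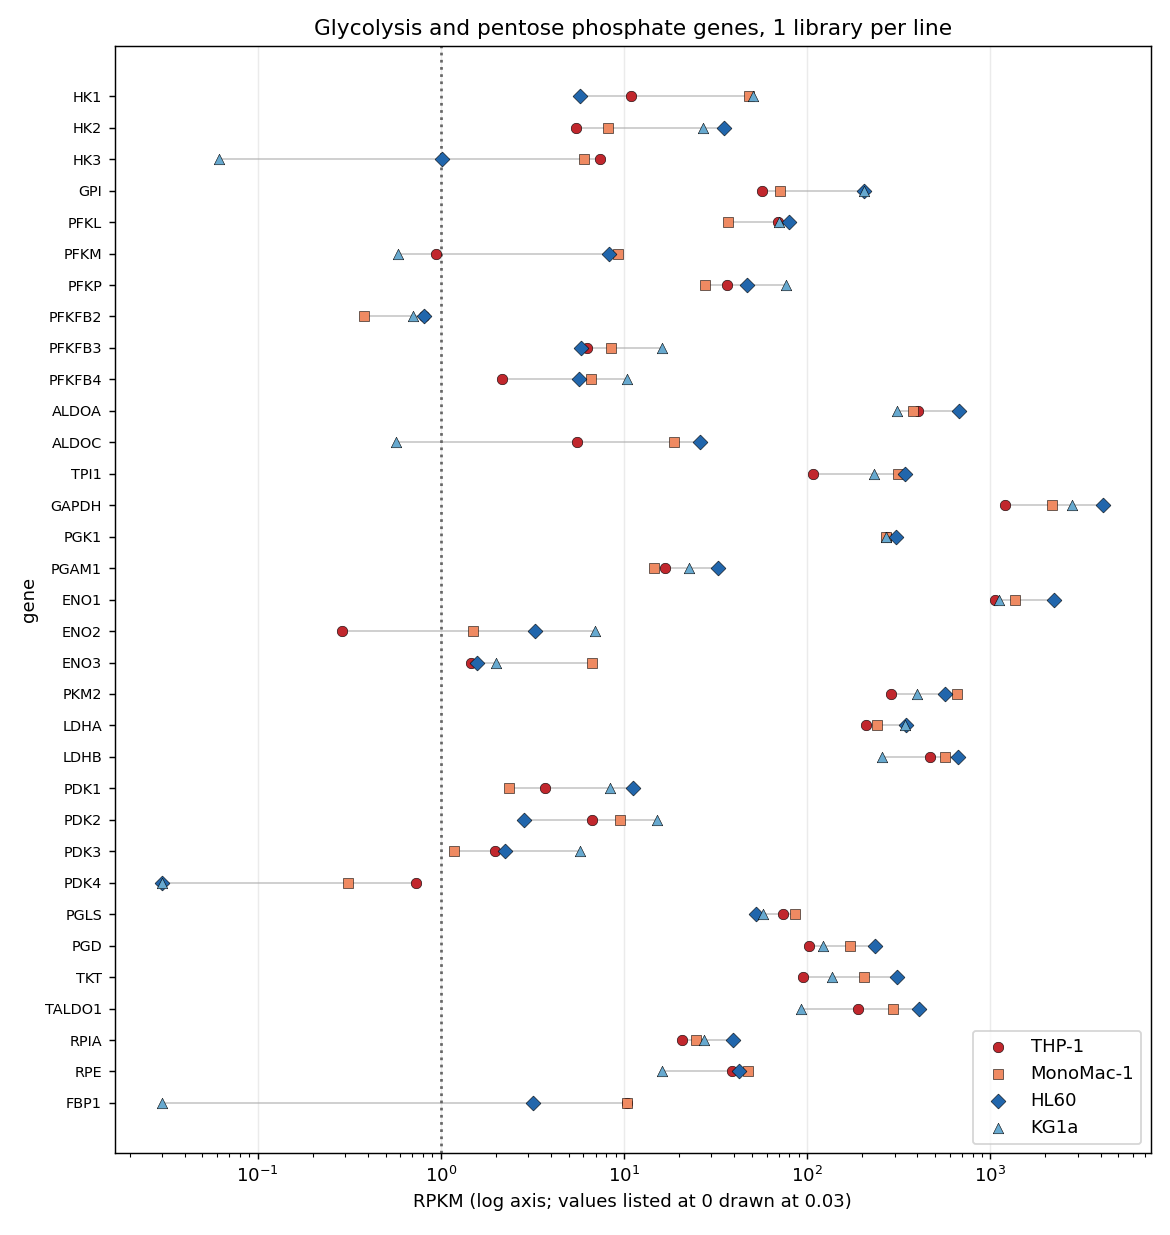
RPKM of each of the 33 genes (rows) in THP-1, MonoMac-1, HL60 and KG1a on a log axis, 1 library per line, with values listed at 0 drawn at 0.03 and a dotted line at 1 RPKM. PGK1 spans 268 to 307 RPKM over the 4 lines, whereas HK3, PFKM and ALDOC spread over more than a factor of 10.

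Of the enzymes without a partner among the 33 genes, PGK1, which makes the first ATP of the pathway, stood at 272 RPKM in THP-1, 269 in MonoMac-1, 307 RPKM in HL60 and 268 RPKM in KG1a, and the ratio of its highest to its lowest line was 1.14. GAPDH, the dehydrogenase that makes NADH and is often used as a reference transcript, stood at 1205 RPKM in THP-1, 2178 in MonoMac-1, 4143 RPKM in HL60 and 2802 RPKM in KG1a. Its ratio of highest to lowest line was 3.44, and 17 of 31 members reached 3 times, as did 46.2% of all measured genes. PGK1 was thus the most even of the measured members, and GAPDH was not.

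TPI1, which interconverts the triose phosphates, was low in THP-1, at 108 RPKM, against 315 in MonoMac-1, 343 RPKM in HL60 and 230.5 RPKM in KG1a. PKM2, the symbol under which the pyruvate kinase gene PKM was listed, stood at 285 RPKM in THP-1, 659 in MonoMac-1, 567 RPKM in HL60 and 400.2 RPKM in KG1a. Its value does not separate the M1 and M2 splice forms. PGAM1, the phosphoglycerate mutase, had 16.7 RPKM in THP-1, 14.6 in MonoMac-1, 32.6 RPKM in HL60 and 22.7 RPKM in KG1a, the lowest summed level of the 11 glycolytic steps in each line. GAPDH, PGK1, PGAM1, TPI1, ENO1, LDHA and PKM2 have processed pseudogenes, whose part in these values was not tested.

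Summed over the 19 glycolytic genes from hexokinase to lactate dehydrogenase, the level was 4224 RPKM in THP-1, 6208 in MonoMac-1, 9702 RPKM in HL60 and 6185 RPKM in KG1a. Of the RPKM of all genes, these sums were 1.11% in THP-1, 1.59% in MonoMac-1, 2.35% of the HL60 total and 1.81% of the KG1a total. HL60 was the highest line in 11 of 17 enzyme steps (8 under quantile normalization) and THP-1 the lowest in 9 (12 under quantile normalization). The shares of all genes highest in HL60 or lowest in THP-1 were not computed, so these counts are not a result about the members. Under quantile normalization GAPDH was highest in KG1a and ENO1 in MonoMac-1, so the rank of HL60 in the most abundant transcripts depended on the scaling.

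**Figure D3:**
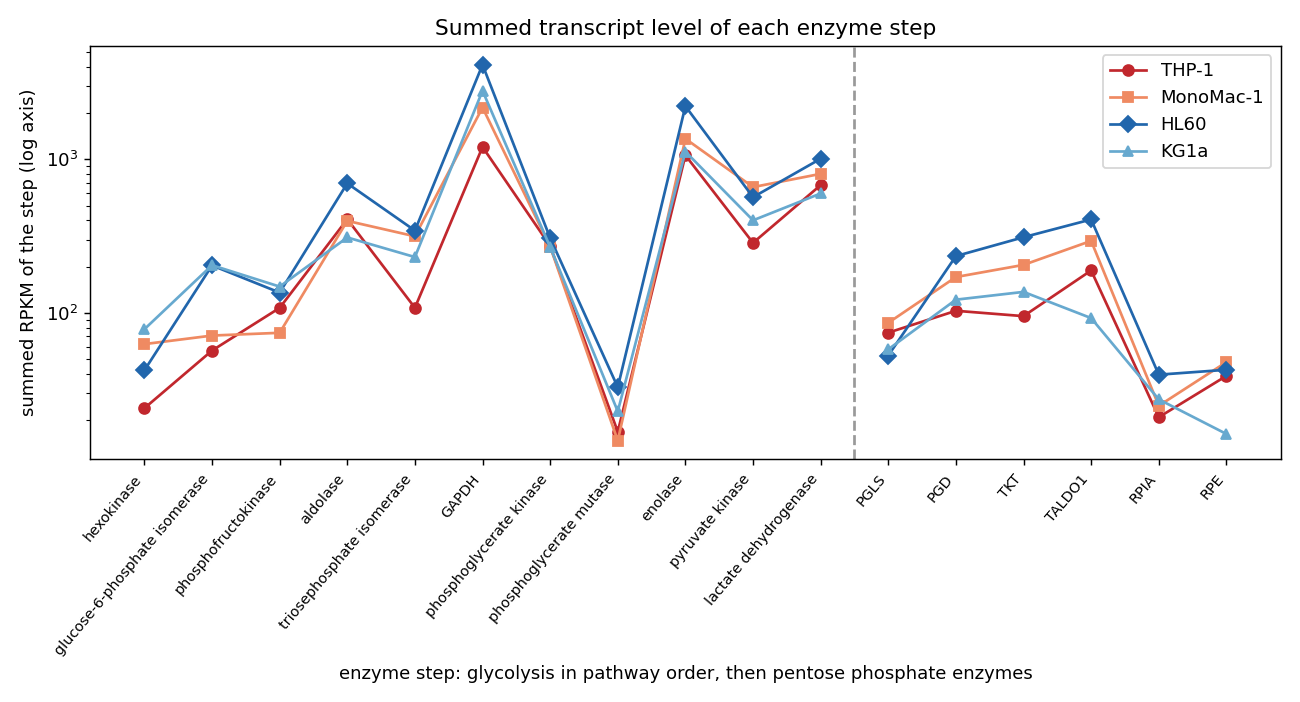
Summed RPKM (log axis) of 11 glycolytic steps in pathway order and 6 pentose phosphate enzymes in THP-1, MonoMac-1, HL60 and KG1a, 1 library per line. The lines share a profile with GAPDH and enolase highest and phosphoglycerate mutase lowest (14.6 to 32.6 RPKM), and they spread most at glucose-6-phosphate isomerase within glycolysis and at TALDO1 in the pentose phosphate pathway.

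In the oxidative part of the pentose phosphate pathway, PGLS, the lactonase, stood at 74.0 RPKM in THP-1, 85.9 in MonoMac-1, 52.5 RPKM in HL60 and 57.7 RPKM in KG1a. PGD, which releases the second NADPH, stood at 103 RPKM in THP-1, 171 in MonoMac-1, 234 RPKM in HL60 and 122 RPKM in KG1a. PGLS was higher throughout the MLL-AF9 pair, by a margin of 1.28 times, and PGD was highest in HL60.

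The non-oxidative enzymes reshuffle sugar phosphates back to glycolysis. TALDO1, the transaldolase, stood at 189 RPKM in THP-1, 294 in MonoMac-1, 406 RPKM in HL60 and 92.2 RPKM in KG1a. TKT, the transketolase, stood at 94.9 RPKM in THP-1, 205 in MonoMac-1, 311 RPKM in HL60 and 137 RPKM in KG1a. KG1a was lowest in TALDO1, with HL60 4.40 times higher, and THP-1 was lowest in TKT, with HL60 3.27 times higher.

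RPE, the ribulose phosphate epimerase, stood at 38.7 RPKM in THP-1, 47.6 in MonoMac-1, 42.4 RPKM in HL60 and 16.2 RPKM in KG1a. RPIA, the ribose phosphate isomerase, had 20.8 RPKM in THP-1, 24.7 in MonoMac-1, 39.4 RPKM in HL60 and 27.2 RPKM in KG1a. In KG1a the epimerase and the transaldolase were thus both low, and the isomerase was not. TKTL1, a transketolase-like gene outside the 33, was listed at 23.5 RPKM in THP-1, 0.0131 in MonoMac-1, 0.0140 RPKM in HL60 and 0 RPKM in KG1a.

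To ask which of these enzymes go with the MLL-AF9 pair, its lines were set against HL60 and KG1a. The pair had more HK3 and FBP1 and less HK2, GPI, ENO2 and PDK1. A member counts as 2-fold apart when the lower line of one pair exceeds the higher line of the other by 2 times or more. By this rule 2 of 31 measured members were higher in the MLL-AF9 pair, where 7.38% of all measured genes were, and 4 were lower, where 4.13% were. The fusion goes with the monocytic lineage in these lines, so fusion, lineage and single lines cannot be told apart.

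FBP1, the fructose bisphosphatase of gluconeogenesis, which opposes phosphofructokinase, stood at 10.3 RPKM in both THP-1 and MonoMac-1, at 3.19 in HL60 (2.83 to 3.58) and at 0 in KG1a. Against the level of 3 fragments in KG1a, FBP1 was at least 378-fold higher in each MLL-AF9 line and at least 117-fold higher in HL60. HK3 was likewise lowest in KG1a, and for both genes each MLL-AF9 line stood above each other line. GPI, which interconverts glucose 6-phosphate and fructose 6-phosphate, stood at 56.6 RPKM in THP-1 and 70.9 RPKM in MonoMac-1, against 203 RPKM in HL60 and 204 RPKM in KG1a. The 2 values within each pair lay close together, and the pairs were 2.87 times apart.

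The limma differences on the log2(RPKM + 1) scale were 2.47 for FBP1 (SE 0.78, adjusted p = 0.506) and 2.40 for HK3 (SE 0.54, adjusted p = 0.361). They were -2.05 for HK2 (SE 0.40, adjusted p = 0.292), -1.67 for GPI (SE 0.34, adjusted p = 0.317), -1.70 for ENO2 (SE 0.61, adjusted p = 0.559) and -1.43 for PDK1 (SE 0.45, adjusted p = 0.506). After Benjamini-Hochberg adjustment over all 12976 genes, limma called 0 of 31 members (0% of all genes in either direction). At an unadjusted p under 0.05 it took 2 higher and 4 lower members, the same 6 genes, where 5.91% and 2.64% of all genes were taken. With 2 lines a side, limma took the error from the spread between lines, moderated over all genes. After adjustment, 0 of these differences passed the threshold.

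By any margin 3 members, HK3, FBP1 and PGLS, stood higher throughout the MLL-AF9 pair (22.1% of all genes), and 11 of 31 were lower (19.6% of all genes). The 11 were HK2, GPI, PFKL, PFKP, GAPDH, PGAM1, ENO2, LDHA, PDK1, PDK3 and RPIA. For PFKL the margin was 1.01 times, within counting error. The median difference of the 31 was -0.38 on the log2 scale, and that of all measured genes 0.02. The median was -0.09 without THP-1 and -0.65 without MonoMac-1. It was -0.25 without HL60 and -0.65 without KG1a. Without HL60, 10 members were higher by any margin, and without KG1a 20 were lower. Leaving out a line removes a condition of the rule, so these counts could only stay or rise. The shares of all genes were not computed with a line left out, so the rise is not a result about the members.

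**Figure D4:**
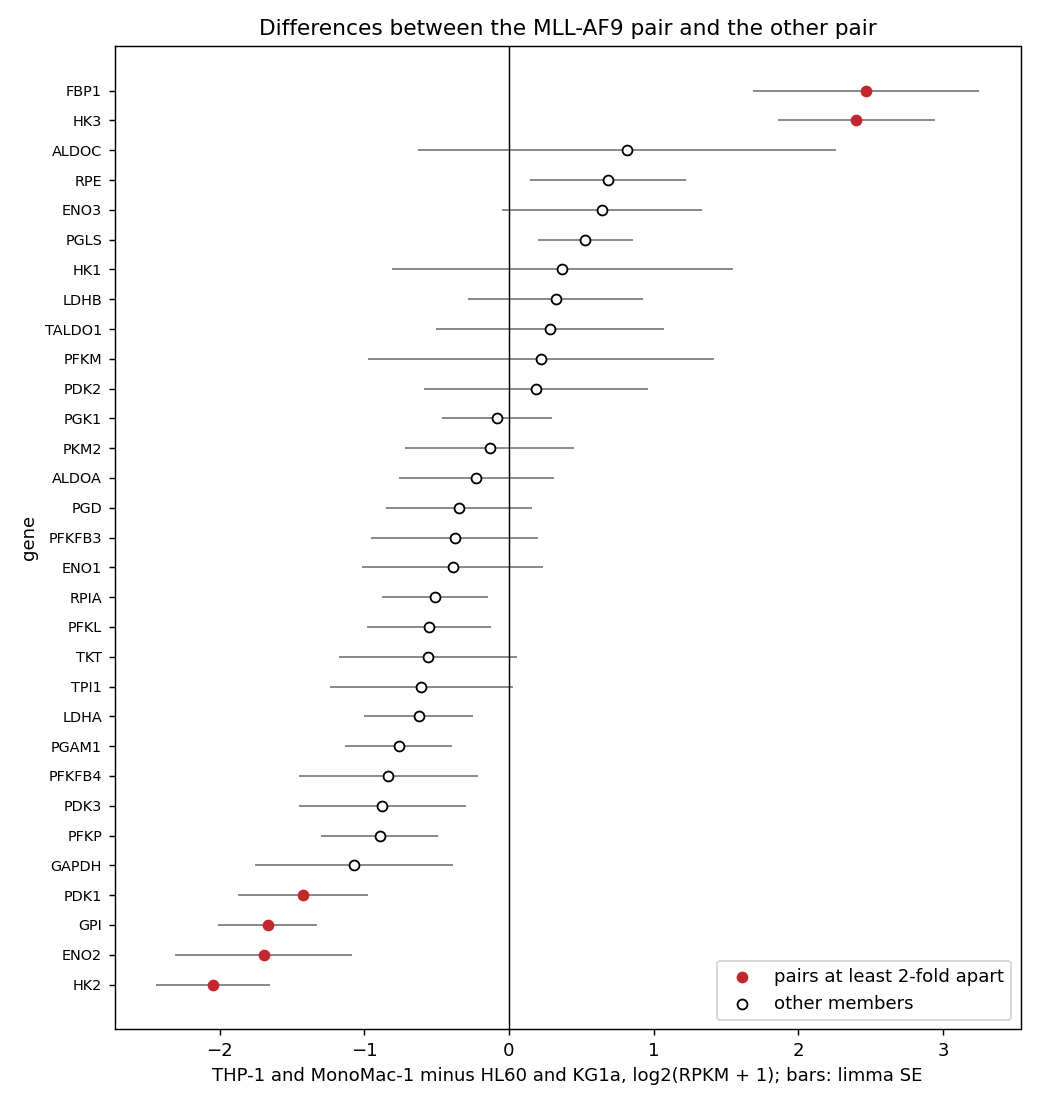
Mean of THP-1 and MonoMac-1 minus mean of HL60 and KG1a in log2(RPKM + 1) for the 31 measured genes (rows), with bars for the limma standard error and filled points for genes whose pairs are at least 2-fold apart. FBP1 (2.47) and HK3 (2.40) stand at the top and HK2 (-2.05) at the bottom, and the widest bars belong to genes such as ALDOC, PFKM and HK1 whose 2 lines of a pair differ.

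The promoter windows of HK3, FBP1, HK2 and GPI are shown, since these were the 4 members whose pairs were furthest apart. The windows are 300 bases around the start in RefSeq (GRCh38.p14), most of them upstream of it, 5′ to 3′ on the gene's strand. HK2 has a pair of listed starts, and the RPKM does not tell which was used. Capitals mark matches on either strand to the hypoxia-response core (ACGTG or GCGTG), the E-box (CACGTG, which contains ACGTG), an ETS core of the PU.1 type (GAGGAA) and a C/EBP-type motif (TTGCNNAA).
HK3, chr5:176899297-176899596, minus strand: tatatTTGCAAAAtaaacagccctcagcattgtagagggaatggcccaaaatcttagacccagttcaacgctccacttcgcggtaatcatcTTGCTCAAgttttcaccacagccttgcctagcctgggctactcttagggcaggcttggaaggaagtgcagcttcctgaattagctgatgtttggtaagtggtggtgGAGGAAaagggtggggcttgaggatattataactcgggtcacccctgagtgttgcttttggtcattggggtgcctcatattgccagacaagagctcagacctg
FBP1, chr9:94639469-94639768, minus strand: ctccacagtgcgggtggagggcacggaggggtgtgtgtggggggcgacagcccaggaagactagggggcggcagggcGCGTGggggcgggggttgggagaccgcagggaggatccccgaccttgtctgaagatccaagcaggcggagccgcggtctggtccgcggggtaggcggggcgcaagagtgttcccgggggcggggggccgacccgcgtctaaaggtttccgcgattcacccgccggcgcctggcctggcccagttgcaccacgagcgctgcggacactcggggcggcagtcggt
HK2, chr2:74833877-74834176, plus strand: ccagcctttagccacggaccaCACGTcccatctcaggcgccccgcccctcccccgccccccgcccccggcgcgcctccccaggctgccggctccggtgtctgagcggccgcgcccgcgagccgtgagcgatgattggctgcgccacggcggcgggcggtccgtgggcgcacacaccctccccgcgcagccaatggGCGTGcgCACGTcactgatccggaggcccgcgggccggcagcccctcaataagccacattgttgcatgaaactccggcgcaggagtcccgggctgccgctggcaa
HK2, chr2:74834920-74835219, plus strand: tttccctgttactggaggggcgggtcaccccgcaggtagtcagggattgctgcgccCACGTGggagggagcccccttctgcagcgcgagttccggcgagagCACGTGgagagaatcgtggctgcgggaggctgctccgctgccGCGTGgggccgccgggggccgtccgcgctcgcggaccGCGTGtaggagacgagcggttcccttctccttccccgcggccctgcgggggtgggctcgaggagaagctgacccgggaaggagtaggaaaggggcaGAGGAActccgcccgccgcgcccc
GPI, chr19:34364742-34365041, plus strand: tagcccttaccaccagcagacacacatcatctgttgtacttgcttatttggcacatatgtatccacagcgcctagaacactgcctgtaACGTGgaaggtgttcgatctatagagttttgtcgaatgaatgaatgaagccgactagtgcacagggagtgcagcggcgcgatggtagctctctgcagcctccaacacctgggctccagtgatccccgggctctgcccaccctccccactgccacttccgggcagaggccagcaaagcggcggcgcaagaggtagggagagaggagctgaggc

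The HK3 window held 2 C/EBP-type matches, 1 PU.1-type ETS core and no hypoxia-response core. The first HK2 window held 3 matches to the hypoxia-response core, and the second held 6, among them 2 E-boxes counted on both strands, and 1 PU.1-type ETS core. FBP1 and GPI held 1 match each to that core. Of 35116 listed promoters, 48.4% held the hypoxia-response core, 7.26% the E-box, 27.9% the ETS core and 10.5% the C/EBP-type motif. Of the 57 windows of the 32 enzyme genes with an entry, 33 held the hypoxia-response core (57.9%), 7 the E-box (12.3%), 20 the ETS core (35.1%) and 5 the C/EBP-type motif (8.77%). These matches describe letters in a window, not binding.

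In the deposited tables (hg19) HK2 lies on chromosome 2 (75059782 to 75120481), HK3 on chromosome 5 (176307900 to 176326333) and FBP1 on chromosome 9 (97365421 to 97402531). GAPDH, TPI1 and ENO2 all lie on the short arm of chromosome 12. There were 329048 bases between GAPDH and TPI1, and 43515 between TPI1 (6976584 to 6980099) and ENO2 (7023614 to 7032859). All 3 had their lowest value in THP-1, which was also the lowest line in 9 of 17 enzyme steps. LDHB and PFKM, also on chromosome 12, were lowest in KG1a. A part of the position was not tested. The spans of 2 members overlapped another listed entry, and neither of those entries reached 1 RPKM.

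The lines were then set against each other singly. In KG1a, 5 of 31 members were at least 2 times lower than in each other line (HK3, ALDOC, TALDO1, RPE and FBP1), where 11.2% of all measured genes were, and 2 were at least 2 times higher (ENO2 and PDK3, 9.93% of all genes). Both counts are near those shares, so they are not a result about the members. After quantile normalization neither ENO2 nor PDK3 reached 2 times. THP-1 was at least 2 times below each other line in 3 members (PFKFB4, TPI1 and ENO2, 4.4% of all genes) and above in 0 (4.82%). MonoMac-1 was above in 1 member (ENO3, 4.99%) and below in 0 (4.06%), and HL60 was above in 0 (2.99%) and below in 1 (PDK2, 8.54%). After the KG1a share was taken off, HL60 was below in 2 members, the second being HK1, which was left at 4.39 RPKM.

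Within the MLL-AF9 pair, 9 of 31 members were at least 2 times lower in THP-1 than in MonoMac-1 (14.2% of genes measured in either line), and 0 were higher (11.6%). The 9 were HK1, PFKM, PFKFB4, ALDOC, TPI1, ENO2, ENO3, PKM2 and TKT. PFKL, at 1.89 times higher in THP-1, came nearest on the other side and passed 2 times under median-of-ratios scaling and under quantile normalization. Sequencing depth also differed, with THP-1 the shallowest and MonoMac-1 the deepest library, and its part in the result was not tested. Among the 9, only ENO2 rested on under 50 fragments in THP-1 (24.5).

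Within the other pair, 9 of 31 members were at least 2 times higher in HL60 than in KG1a (17% of genes measured in either line) and 5 were lower (23.9%). The higher genes were HK3, PFKM, ALDOA, ALDOC, LDHB, TKT, TALDO1, RPE and FBP1, and the lower genes were HK1, PFKFB3, ENO2, PDK2 and PDK3. Of the 6 pentose phosphate enzymes, TKT, TALDO1 and RPE were thus among the higher genes, and PGD came next at 1.92 times. Of the lower genes, PFKFB3, PDK2 and PDK3 do not carry out a step of the pathway. PFKFB3 regulates phosphofructokinase, and PDK2 and PDK3 regulate pyruvate dehydrogenase. Under quantile normalization 6 rather than 9 members were higher and 3 rather than 5 lower.

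A further 78 genes covered sugar metabolism, its regulators and hypoxia-induced genes outside glycolysis. Of these, 63 were measured, and limma called 0 of them between the pairs. By the 2-fold rule 5 of the 63 were higher in the MLL-AF9 pair (7.38% of all measured genes) and 4 lower (4.13%), which is near those shares. Of the 4 lower genes, ADM and ANKRD37 came from the hypoxia-induced list and SLC2A3 and PGK2 from sugar metabolism. Glucose transporters varied widely among the lines. SLC2A1 (GLUT1), the basal transporter, stood at 66.0 RPKM in THP-1, 9.38 in MonoMac-1, 19.6 RPKM in HL60 and 26.8 RPKM in KG1a. SLC2A3 (GLUT3), a high-affinity transporter, stood at 0.683 RPKM in THP-1 and 3.02 RPKM in MonoMac-1, against 21.8 RPKM in HL60 and 21.3 RPKM in KG1a. The MLL-AF9 lines were thus both low in SLC2A3, as they were in HK2, and SLC2A1 was highest in THP-1.

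SLC2A5, the fructose transporter, stood at 46.3 RPKM in THP-1, 5.95 in MonoMac-1, 10.7 RPKM in HL60 and 0.243 RPKM in KG1a. SLC2A6 stood at 7.30 RPKM in THP-1 and 12.9 RPKM in MonoMac-1, against 0.906 RPKM in HL60 and 0.714 RPKM in KG1a, and SLC2A9, a urate transporter, at 27.6 RPKM in THP-1 and 12.9 RPKM in MonoMac-1, against 1.18 RPKM in HL60 and 4.17 RPKM in KG1a. Both were at least 2 times higher in the MLL-AF9 pair. SLC2A8 stood at 2.26 RPKM in THP-1, 18.5 in MonoMac-1, 1.66 RPKM in HL60 and 0 RPKM in KG1a, and SLC37A4, which moves glucose 6-phosphate into the endoplasmic reticulum, at 7.89 RPKM in THP-1, 15.1 in MonoMac-1, 27.0 RPKM in HL60 and 43.8 RPKM in KG1a.

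Among further enzymes, RBKS, the ribokinase, was at least 2 times higher in the pair, at 5.52 RPKM in THP-1 and 32.4 RPKM in MonoMac-1, against 0.579 RPKM in HL60 and 0.663 RPKM in KG1a. H6PD, which makes NADPH in the endoplasmic reticulum, stood at 12.8 RPKM in THP-1, 12.6 in MonoMac-1, 2.56 RPKM in HL60 and 19.5 RPKM in KG1a, and PGM1, which links glycogen to glucose 6-phosphate, at 4.65 RPKM in THP-1, 23.1 in MonoMac-1, 29.9 RPKM in HL60 and 46.5 RPKM in KG1a. PYGL, the liver-type glycogen phosphorylase, was low in KG1a, at 97.8 RPKM in THP-1, 84.5 in MonoMac-1, 181 RPKM in HL60 and 5.58 RPKM in KG1a. KHK, the fructokinase, was highest in KG1a at 13.7 RPKM, against 1.44 in THP-1, 2.51 RPKM in MonoMac-1 and 3.19 in HL60. PC, the pyruvate carboxylase, stood at 1.83 RPKM in THP-1, 4.30 in MonoMac-1, 0.481 RPKM in HL60 and 14.2 RPKM in KG1a, and HL60 was left at 0.0962 after the KG1a share was taken off.

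The remaining genes of the 2-fold count, named after their values were seen, were PGAM2 and SLC2A14 on the higher side and PGK2, ADM and ANKRD37 on the lower side. PGAM2, the muscle-type mutase, stood at 6.15 RPKM in THP-1 and 8.04 RPKM in MonoMac-1, against 1.34 RPKM in HL60 and 2.20 RPKM in KG1a. SLC2A14, a near copy of SLC2A3, stood at 0.675 RPKM in THP-1 and 2.09 RPKM in MonoMac-1, against 0.0505 RPKM in HL60 and 0.0472 RPKM in KG1a, and PGK2, a near copy of PGK1, was listed at 0 in both MLL-AF9 lines, against 0.133 RPKM in HL60 and 5.99 RPKM in KG1a. Reads shared between such copies may be split by the authors' counting, so these 2 values are uncertain.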

How the data were processed

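RNA of 4 cell lines was extracted with TRIzol and sequenced from Illumina libraries, per the labels' protocols, and the submitters' processing notes list CASAVA 1.8.2 and hg19. Aligner, annotation and strand handling: not given in the sources used here. Each line has a table of 21893 entries with an RPKM value that the authors deposited. They also deposited a whole-number signal without a unit, read here as bases on the gene because its commonest low value was 200. Its ratio to the RPKM was constant between libraries (within 0.000167%, over entries above 5 RPKM in each library). That ratio cannot tell bases from reads or fragments. In MonoMac-1 12.7% of low values (under 1000) were multiples of 100, against 44.8% to 49.7% in the other libraries.

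Of repeated symbols the entry with the highest mean was kept. Differences were computed as log2(RPKM + 1), and this pseudocount of 1 understates changes of low genes. Limma 3.58.1 in R 4.3.3 (eBayes with trend, two-sided, Benjamini-Hochberg, threshold 0.05) was fitted to all 12976 measured genes with the line as the unit and 2 residual degrees of freedom, so p-values measure the spread between lines. Shares have delta-method counting intervals. The KG1a share in HL60 was the median ratio over genes of at least 20 RPKM in KG1a and under 0.5% of that level in THP-1 and MonoMac-1. The members, lists and rules were chosen with earlier results of these data known. Members with a highest line at least 3 times the lowest and all leading isoenzymes were described in full. Other genes were named from 10 RPKM and a 4-fold range, with exceptions stated where they occur. Alternatives covered scaling, pseudocount, filter, fold, repeated symbols, left-out libraries and removal of the KG1a share. Some genes of the lists are not reported here.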

Additional observations from a re-analysis of the deposited data

How the results depend on the processing

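Of 168 recomputed counts and medians, 129 stayed within the limits set (1.5 times for counts, 0.1 for the log2 median). Only the medians could reverse in sign, and 0 did. No member symbol was repeated, so summing repeated symbols could not change the fold counts or the median of the members. The 6 named pair differences kept their direction in all 72 recomputations. These genes were picked because their pairs were at least 2-fold apart in the same data. Leaving out a library or changing the filter, the trend or the handling of repeats could therefore not reverse them. Median-of-ratios scaling and summing of repeated symbols could not change an isoenzyme share, so only HL60 shares without the KG1a share could move. Of 240 recomputed shares 6 moved, all of them there and by at most 2.73 percentage points. Limma called 11 of all genes when only genes of at least 5 RPKM were fitted, 0 in the other settings, and 0 members in any; fewer genes were then tested. At 4-fold instead of 2-fold, 1 member was higher and 0 lower in the MLL-AF9 pair, THP-1 was below the others in 1, MonoMac-1 above in 0, HL60 below in 0, KG1a above in 0 and below in 3, THP-1 below MonoMac-1 in 4, and HL60 above KG1a in 5 and below in 2. At 1.5-fold, MonoMac-1 was below in 3, HL60 above in 3 and below in 2, and KG1a above in 6. Quantile normalization gave MonoMac-1 below in 1, HL60 below in 0, KG1a above in 0, THP-1 above MonoMac-1 in 1 and HL60 below KG1a in 3. Median-of-ratios scaling gave THP-1 above MonoMac-1 in 1, and removal of the KG1a share HL60 below in 2. For these settings the cause was not tested.

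With each library left out in turn, the 2-fold counts between the pairs ranged from 2 to 5 higher (5 without HL60) and from 4 to 7 lower (7 without MonoMac-1). The counts by any margin ranged from 3 to 10 higher (7 without THP-1, 10 without HL60, 6 without KG1a) and from 11 to 20 lower (18 without MonoMac-1, 20 without KG1a). Both kinds of count could only stay or rise with a library left out, and the matching shares of all genes were not computed. The median log2 difference ranged from -0.65 to -0.0900. Without HL60 or THP-1, omissions added after the data were seen, MonoMac-1 was above in 3 and 3 and below in 0 and 4, KG1a above in 6 and 2, HL60 below in 2 without THP-1, and the leading isoenzyme differed in 2 and 4 families. A lone line left in a pair is assumed to vary like the others. The counts by fold use no pseudocount and were not recomputed for it. No paired analysis was possible because each line has 1 library and no replicate numbers.

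There was no replicate of any line. Counting error is small for the abundant enzymes and matters for HK3 in KG1a, ENO2 in THP-1 and PDK4. Shared reads of near-identical copies were not tested.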

Other observations

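Of the regulators of sugar metabolism, EPAS1, EGLN1 and TXNIP were highest in THP-1 and MYC in HL60. EPAS1, a hypoxia-inducible factor subunit, stood at 20.4 RPKM in THP-1, 0.549 in MonoMac-1, 0.0872 RPKM in HL60 and 0.337 RPKM in KG1a. EGLN1, the oxygen-sensing prolyl hydroxylase, stood at 22.0 RPKM in THP-1, 5.61 in MonoMac-1, 6.46 RPKM in HL60 and 0.282 RPKM in KG1a. TXNIP, an inhibitor of glucose uptake, was highest in THP-1 at 276 RPKM, against 58.7 in MonoMac-1, 110.3 RPKM in HL60 and 31.1 RPKM in KG1a. MYC, a transcription factor that drives many glycolytic genes, was highest in HL60 at 596 RPKM, against 113 in THP-1, 137 RPKM in MonoMac-1 and 141 RPKM in KG1a. Of 9 measured regulators 0 were at least 2 times higher or lower in the MLL-AF9 pair, where 7.38% and 4.13% of all genes were.

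Genes known to be induced by hypoxia outside glycolysis were highest in different lines. VEGFA, a growth factor of vessels, was highest in HL60, at 40.7 RPKM against 4.86 in THP-1, 7.20 RPKM in MonoMac-1 and 6.56 RPKM in KG1a. NDRG1 was highest in MonoMac-1, at 59.6 RPKM against 16.2 in THP-1, 6.30 RPKM in HL60 and 8.23 RPKM in KG1a, and P4HA1, a collagen prolyl hydroxylase, likewise at 45.1 RPKM, against 9.37 in THP-1, 22.1 RPKM in HL60 and 19.0 RPKM in KG1a. BNIP3L, a mitophagy receptor, was highest in KG1a, at 47.3 RPKM against 8.93 in THP-1, 18.0 RPKM in MonoMac-1 and 6.22 RPKM in HL60. DDIT4, an inhibitor of mTORC1, stood at 5.69 RPKM in THP-1, 43.6 in MonoMac-1, 95.0 RPKM in HL60 and 33.1 RPKM in KG1a. Of 9 measured genes 0 were at least 2 times higher in the MLL-AF9 pair (7.38% of all genes) and 2 were lower (4.13% of all genes), ADM (0 RPKM in THP-1 and 0.241 RPKM in MonoMac-1, against 4.20 RPKM in HL60 and 6.24 RPKM in KG1a) and ANKRD37 (0.631 RPKM in THP-1 and 0.647 RPKM in MonoMac-1, against 1.56 RPKM in HL60 and 1.86 RPKM in KG1a).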
